A study of Mus musculus with 4 samples.

Results

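Chemokine and cytokine ligand genes were taken from the count table by symbol: genes numbered in the Ccl, Cxcl, interleukin (Il), Tnfsf and Csf families, together with Cx3cl1, Il1rn, Il18bp, Lif and Tslp. The table held 96 such genes among 22063. Of these, 92 encode ligands or soluble antagonists, and 4 (Il7r, Il9r, Il21r and Il23r) encode receptors that the interleukin pattern also matched. Chemokines are small secreted proteins that draw leukocytes along a gradient through G protein-coupled receptors. Interleukins, TNF superfamily ligands and colony-stimulating factors act on immune and structural cells through receptors coupled to kinases or adaptors. Airway epithelial cells release many of these proteins after injury or infection, and transcription factors of the NF-kB and interferon pathways switch on many of the genes.

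The libraries came from C22, a wild-type immortalized Club cell line of the mouse airway, and the study asked how such cells respond to norepinephrine (NE), the sympathetic transmitter. The NE group (2 libraries) was cultured with 10 µM NE for 3 h. The vehicle group (2 libraries), named PBS in the count table, was cultured with vehicle for as long. All are cultures of 1 line, and the labels do not say whether replicates were grown separately. The p-values therefore reflect only how these libraries vary, which may be technical variation.

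Total counts were 15657173 and 18491334 in the NE libraries, against 14820258 and 14783176 in the vehicle libraries. In a chi-square test of counts, no pair agreed within sampling noise: the value per degree of freedom was 4.53 within NE, 6.52 within vehicle and between 6.14 and 13.4 across groups. Defining markers of mature Club cells were nearly absent, with 2 counts of Scgb1a1 in all libraries and 0 of Scgb3a2, Cyp2f2 and Epcam. The keratin gene Krt8 averaged 926.0 ± 34.8 CPM (counts scaled to library size) in NE and 874.3 ± 29.9 CPM in vehicle (SD, n = 2 each). Of 15 Club and airway epithelial markers 6 were at 0, 5 reached 10 CPM and edgeR called 0 of the 6 tested. These 15 summed to 2537 and 2629 CPM in NE, against 2624 and 2572 CPM in vehicle. Krt8, Aldh1a1 (821 CPM over the 4 libraries) and Krt18 (607) led them. Of 10 fibroblast markers 2 (Thy1 and Lum) were at 0, 6 reached 10 CPM, 8 were tested and 0 were called. These 10 summed to 4627 and 4686 CPM in NE, against 5492 and 4697 CPM in vehicle. Vim (2814 CPM over the 4 libraries) and Col1a1 (1201) led them. Of 22 leukocyte markers 5 were at 0, 3 could be tested (Cd14, Csf1r and Cd68) and 0 were called by edgeR. They summed to 40.4 and 45.5 CPM in NE, against 25.2 and 40.9 CPM in vehicle. Most of this sum was Cd14 (24.8 CPM over the 4 libraries), and 16 of the 22 had under 10 counts. The general leukocyte marker Ptprc had 1 count in all. Vehicle replicate 1 alone held counts of the neutrophil genes Mpo (23), S100a9 (13) and S100a8 (4). It also stood apart in several results below, and the part of these counts in them was not tested.

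C22 cells carried transcripts of a narrow set of these ligands. Of the 96 genes, 41 had 0 counts in every library, 24 had between 1 and 9 counts in all, and 31 had at least 10. A count of 0 in the 4 libraries allows up to 0.0471 CPM. A mean of at least 1 CPM was reached by 20 genes. The 5 most abundant (Csf1, Cxcl12, Il33, Ccl2 and Ccl7) held 79.5% of the counts of the whole set. The genes summed to 477.1 and 454.3 CPM in NE, against 605.0 and 502.1 CPM in vehicle, so the groups did not overlap, and vehicle replicate 1 was the highest. Per kilobase of exon, which allows levels to be compared between genes, the order was led by Ccl7 (36.0 CPM per kb over the 4 libraries), Ccl2 (35.1), Csf1 (30.8) and Il33 (25.1). Next came Cxcl12 (12.4), Cxcl1 (10.2) and Tnfsf12 (7.36). The order of the first 4 depended on the group. In NE it was Ccl7 (36.0 CPM per kb), Ccl2 (31.8), Il33 (27.3) and Csf1 (26.3), and in vehicle Ccl2 (38.5), Ccl7 (36.0), Csf1 (35.2) and Il33 (22.9).

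**Figure D1:**
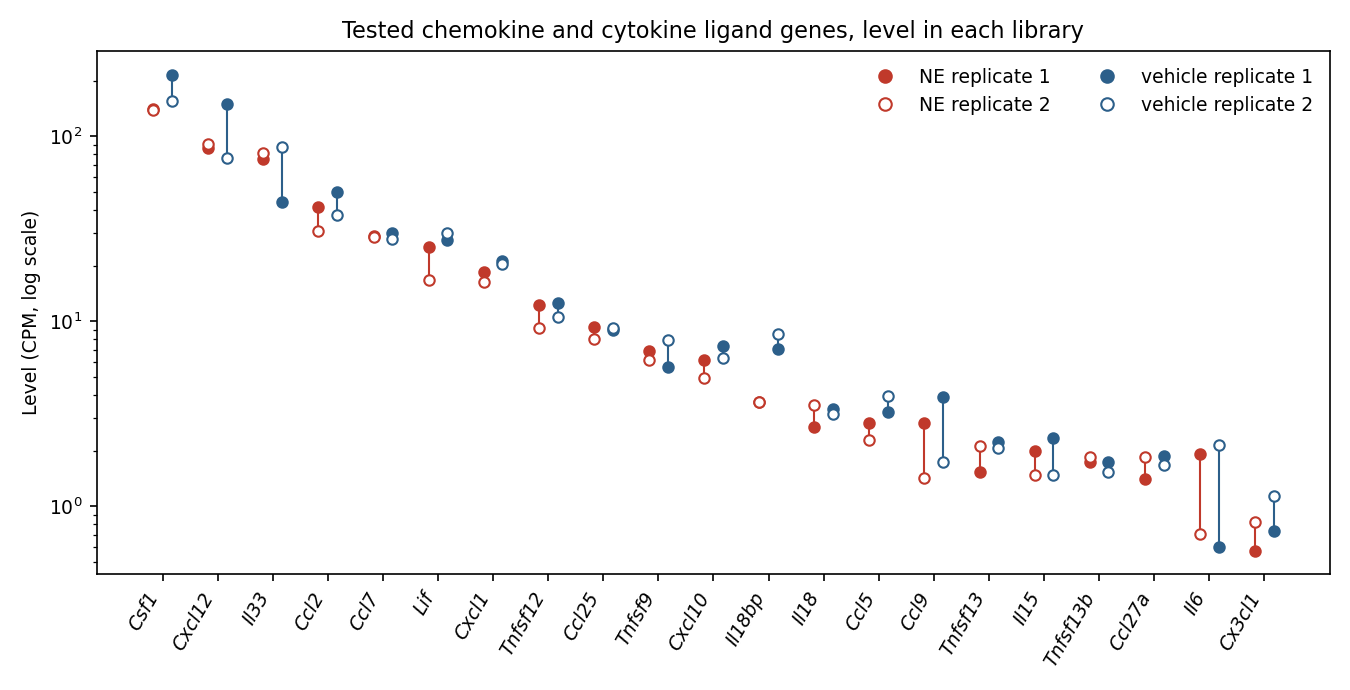
Level of the 21 tested ligand genes in each library (y axis: CPM, log scale). NE libraries are red and vehicle libraries blue, replicate 1 filled and replicate 2 open, with a line joining the 2 libraries of a group. Il18bp has both NE libraries near 3.66 CPM, clearly under both vehicle libraries, whereas Cxcl12, Il33 and Il6 are spread widely between the vehicle libraries.

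Enough counts for a test were found for 21 members, and 1 of them, Il18bp, was called lower in NE. With edgeR's quasi-likelihood test and adjustment over all 11419 tested genes, 0 members were higher and 20 did not pass. Over all tested genes 1.57% were called, 0.342% higher and 1.23% lower. At an unadjusted p under 0.05 stood 4 members (Il18bp, Csf1, Lif and Cxcl1), all lower in NE, against 17.3% of all tested genes. DESeq2 and limma voom also called 0 members higher. DESeq2 called 0 lower, but it gave an adjusted p only to Lif, Csf1, Ccl2, Cxcl12, Il33 and Ccl7. The other tested members, Il18bp among them, could thus not be called by it. Of the 7655 genes with an adjusted p, DESeq2 called 0.980%. Limma voom called 1 member lower, Il18bp, and 1.88% of all tested genes in either direction. Of the 21 log2 fold changes 19 were below 0 and 2 above, with a median of -0.22. Ccl7, among the 19, stood at -2.44e-06, and with DESeq2 or limma voom 18 were below 0. Over all tested genes the median was 0.00 and 50.0% were below 0. The groups did not overlap for 6 members, each lower in NE (Il18bp, Csf1, Lif, Cxcl1, Cxcl10 and Ccl5), and for 24.6% of all tested genes in that direction (49.2% in either direction). Without vehicle replicate 1, 15 members were below 0, and without NE replicate 2 it was 13.

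**Figure D2:**
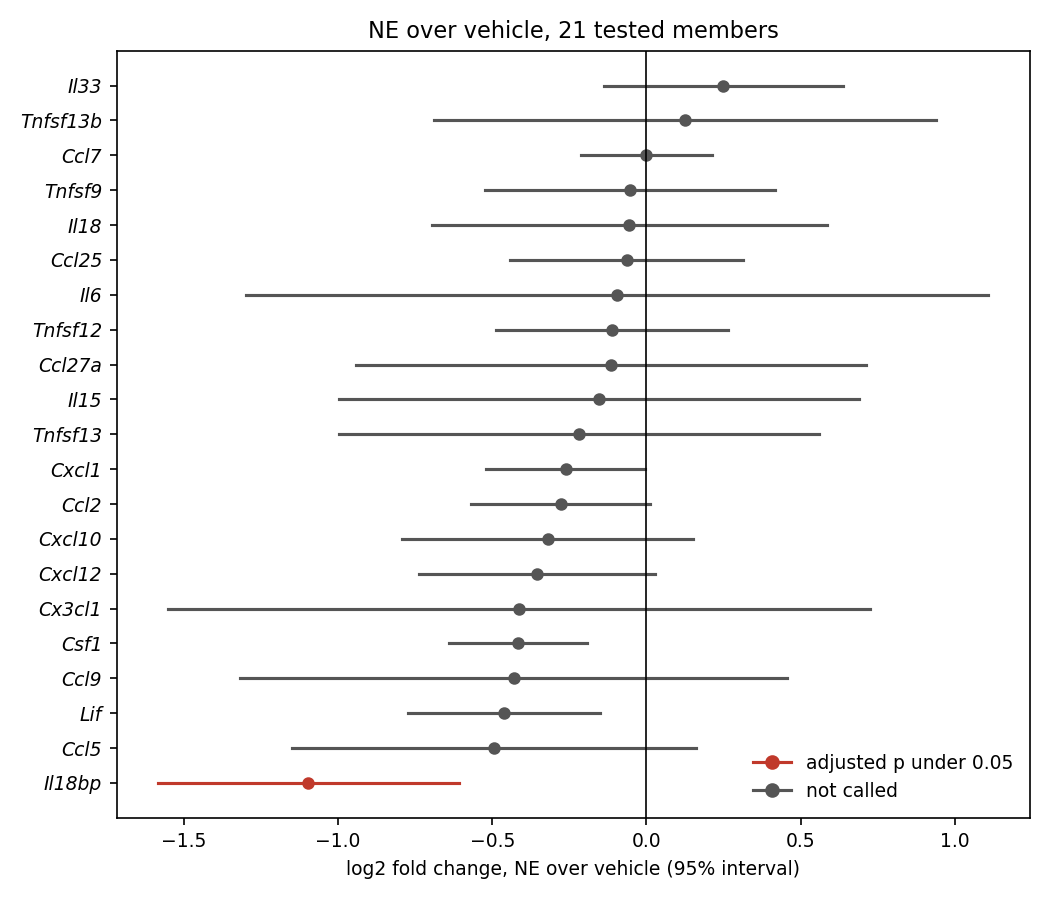
Log2 fold change of NE over vehicle for the 21 tested ligand genes (x axis), with the 95% interval of the edgeR fit as a line. Only the interval of Il18bp, in red, belongs to a gene with an adjusted p under 0.05. Those of Csf1, Lif and Cxcl1 also lie below 0 and belong to genes that did not pass over all genes.

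Il18bp encodes the secreted binding protein that traps interleukin-18 before it can reach its receptor. Il18bp (ENSMUSG00000070427) had 57 and 67 counts in the NE libraries, against 106 and 127 in the vehicle libraries. In CPM it stood at 3.65 and 3.66 in NE and at 7.12 and 8.53 in vehicle. The NE libraries thus lay under both vehicle libraries, and closer together than their counting error (0.26 on the log2 scale). The log2 fold change was -1.10 ± 0.23 (SE), with a 95% interval from -1.58 to -0.61 (edgeR adjusted p = 0.0319). The adjusted p was 0.134 without NE replicate 1 and 0.436 without NE replicate 2, with log2 fold changes of -1.09 and -1.10. After removal of each library's trend on transcript length it was 0.0574, at a log2 fold change of -1.08. The strand setting of the counting is not known, and in the GENCODE M21 annotation 80 of the gene's 3026 exon bases (2.64%) lie opposite exons of Numa1. Numa1 was far more abundant, at 150.5 ± 12.8 CPM in NE and 175.1 ± 11.9 CPM in vehicle (SD, n = 2 each), a log2 difference of -0.22 ± 0.08 (adjusted p = 0.158). The part of reads from Numa1 in the Il18bp counts was not tested.

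The ligand that this protein binds did not pass the test. Il18 stood at 2.69 and 3.55 CPM in NE and at 3.36 and 3.16 CPM in vehicle. The NE libraries lay on either side of the vehicle libraries, and the log2 fold change was -0.05 ± 0.30 (95% interval -0.70 to 0.59, edgeR adjusted p = 0.947). Per kilobase, Il18 averaged 3.03 CPM per kb in NE and 3.16 in vehicle, and Il18bp 1.21 in NE and 2.59 in vehicle. Whether the changes of these genes differ from each other was not tested. Il1rn, the gene of the interleukin-1 receptor antagonist and the other soluble antagonist of the set, had 4 counts in all.

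Csf1, the gene of the macrophage growth factor M-CSF, had the highest count of the set. Csf1 reached 139.8 and 138.5 CPM in NE, against 215.8 and 155.9 CPM in vehicle. Both NE libraries were lower than both vehicle libraries, and the vehicle libraries differed from each other by 0.47 on the log2 scale, more than the groups did. Its log2 fold change was -0.42 ± 0.11 (95% interval -0.64 to -0.19) and did not pass over all genes (edgeR adjusted p = 0.0572). It was called without a filter on low counts (edgeR adjusted p = 0.0217). The log2 fold change was -0.63 without vehicle replicate 2 and -0.16 without vehicle replicate 1. A fit with a single vehicle library takes its spread from the NE libraries alone and leaves out the difference between vehicle libraries. The other colony-stimulating factor genes were near the limit of detection. Csf2, which encodes GM-CSF, had 11 counts in all, and Csf3, which encodes G-CSF, had 3.

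Lif and Il6 belong to the cytokines that signal through the shared receptor chain gp130. Lif, known for its role in stem cell self-renewal, stood at 25.3 and 16.8 CPM in NE, against 27.6 and 30.0 CPM in vehicle. Here the NE libraries were the ones that differed, by 0.59 on the log2 scale, and both were under the vehicle libraries. NE over vehicle gave a log2 fold change of -0.46 ± 0.15 (95% interval -0.77 to -0.15, edgeR adjusted p = 0.119). The log2 fold change of Lif was -0.52 without vehicle replicate 1, -0.40 without vehicle replicate 2 and -0.78 without NE replicate 1. Without NE replicate 2, the lowest library, it was -0.19.

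Il6, a major inflammatory cytokine that NE induces in several other cell types, was scarce. It had 30 and 13 counts in NE, against 9 and 32 in vehicle, or 1.92 and 0.710 CPM in NE and 0.605 and 2.15 CPM in vehicle. The libraries of each group lay on both sides of the other group, with log2 differences of 1.44 between the NE libraries and -1.83 between the vehicle libraries. Its log2 fold change was -0.09 ± 0.57, with a 95% interval from -1.30 to 1.11 (edgeR adjusted p = 0.952). These differences within groups exceeded the counting error, which was 0.48 in NE and 0.54 in vehicle. Without vehicle replicate 2 the log2 fold change was 1.09 and without NE replicate 1 it was -0.94, neither called. Il11, another gp130 cytokine gene, had 5 counts in all.

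Among the CXC chemokine genes, Cxcl12, Cxcl1 and Cxcl10 reached at least 1 CPM. Cxcl12 encodes SDF-1, which retains and guides stem cells and leukocytes. It stood at 87.0 and 90.5 CPM in NE, against 150.2 and 76.7 CPM in vehicle. Vehicle replicate 1 was the highest and vehicle replicate 2 the lowest of all, with a log2 difference of 0.97 (counting error 0.05), whereas the NE libraries differed by -0.06. For NE over vehicle the log2 fold change was -0.35 ± 0.18 (edgeR adjusted p = 0.331). It was 0.21 without vehicle replicate 1 and -0.76 without vehicle replicate 2, so its sign turned on which vehicle library was kept.

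Cxcl1, a neutrophil attractant of the NF-kB response, varied less between libraries. It was found at 18.5 and 16.3 CPM in NE, against 21.2 and 20.4 CPM in vehicle. The groups did not overlap, at a log2 fold change of -0.26 ± 0.12 (95% interval -0.52 to -0.00, edgeR adjusted p = 0.281). Cxcl10, an interferon-induced attractant of T cells, had 6.15 and 4.92 CPM in NE and 7.39 and 6.38 CPM in vehicle, and the log2 difference was -0.32 ± 0.22 (adjusted p = 0.486). Both genes thus stood lower in both NE libraries without passing the test. Cx3cl1, the gene of the membrane-bound chemokine fractalkine, had 52 counts in all and a log2 difference of -0.41 ± 0.54 between groups (adjusted p = 0.745).

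The CC chemokine genes were led by Ccl2 and Ccl7, whose products attract monocytes. Ccl2 stood at 41.7 and 30.8 CPM in NE, against 49.7 and 37.8 CPM in vehicle. The groups overlapped, and the libraries of a group differed by 0.44 in NE and 0.40 in vehicle on the log2 scale. Between groups the log2 fold change was -0.28 ± 0.14 (95% interval -0.57 to 0.01, edgeR adjusted p = 0.311), and without vehicle replicate 2 it was -0.46. It was -0.07 both without vehicle replicate 1 and without NE replicate 2. Ccl7 stood at 29.0 and 28.7 CPM in NE and 30.0 and 27.7 CPM in vehicle. It had the narrowest interval of the tested members, from -0.21 to 0.21, around a log2 fold change of 0.00 ± 0.10 (adjusted p = 1.00).

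Ccl25, Ccl5, Ccl9 and Ccl27a were the other CC genes with a test. Ccl25 stood at 9.36 and 8.03 CPM in NE and at 8.94 and 9.20 CPM in vehicle (log2 fold change -0.06 ± 0.18), and part of its exons lies opposite those of Elavl1 (143.6 CPM over the 4 libraries), so its values are uncertain. Ccl5 (RANTES), an attractant of T cells, had 2.82 and 2.29 CPM in NE and 3.23 and 3.96 CPM in vehicle. Its log2 fold change of -0.50 ± 0.31 was the second most negative of the set and did not pass (edgeR adjusted p = 0.436). Ccl9 stood at 2.82 and 1.42 CPM in NE and at 3.90 and 1.75 CPM in vehicle (log2 fold change -0.43 ± 0.42). It differed more between libraries of 1 group than between groups, by 0.99 on the log2 scale in NE and 1.16 in vehicle. Ccl27a stood at 1.41 and 1.86 CPM in NE and at 1.88 and 1.68 CPM in vehicle (log2 fold change -0.12 ± 0.39). Its near-identical copy Ccl27b had 0 counts. How reads that match both copies were counted is not known, so the values of these genes are uncertain. The same uncertainty holds for Ccl21a, Ccl21b and Ccl21d, each at 0.

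Neighbouring chemokine genes of 1 cluster differed widely in level. In the order of RefSeq genes (GRCm38.p6) on chromosome 11, Ccl2 and Ccl7 are followed by Ccl11 (0.0682 CPM per kb), Ccl12 (0 counts), Ccl8 (0.559 CPM per kb) and Ccl1 (0 counts). Further along the same chromosome, Ccl5 (3.20 CPM per kb) and Ccl9 (0.811) are followed by Ccl6 (0.0335), Ccl3 (0.0219) and Ccl4 (0 counts). On chromosome 5, Cxcl1 (10.2 CPM per kb) lies between Cxcl15 (0.0233) and Cxcl2 (0 counts), with Cxcl3 (0.00480) and Cxcl5 (0.249) before them. The genes with a test in these clusters were thus adjacent pairs (Ccl2 with Ccl7, Ccl5 with Ccl9) or single genes (Cxcl1, Cxcl10), and the genes beside them had too few counts for one. The levels are a description without a test.

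**Figure D3:**
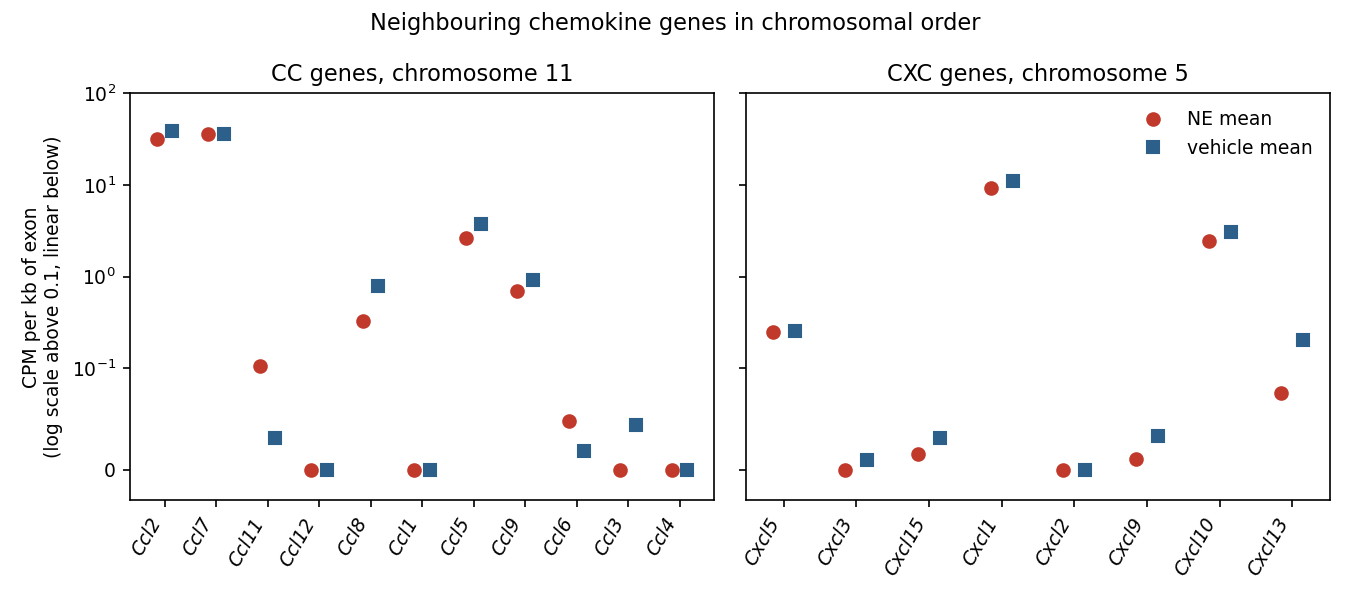
Mean level per kilobase of exon of CC genes on chromosome 11 and CXC genes on chromosome 5, in chromosomal order from left to right (y axis: CPM per kb, log scale above 0.1 and linear below). Red circles are NE means and blue squares vehicle means of 2 libraries each. Ccl2, Ccl7 and Cxcl1 stand far above neighbours such as Ccl12, Ccl1 and Cxcl2, which had 0 counts.

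Il33 was the most abundant interleukin gene. It encodes an alarmin, which epithelial and stromal cells hold in the nucleus and release upon damage. Il33 stood at 75.8 and 81.6 CPM in NE, against 44.4 and 88.0 CPM in vehicle. Vehicle replicate 1 was low and the other 3 libraries lay close together, with a log2 difference of -0.99 (counting error 0.07) between the vehicle libraries. NE over vehicle gave 0.25 ± 0.18 (95% interval -0.14 to 0.64, edgeR adjusted p = 0.510). It was -0.16 without vehicle replicate 1 and 0.83 without vehicle replicate 2. Il15, which sustains natural killer cells, stood at 1.99 and 1.48 CPM in NE and at 2.35 and 1.48 CPM in vehicle (log2 fold change -0.15 ± 0.40, adjusted p = 0.886).

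TNF superfamily ligands were present at low levels, and 0 of the 4 tested were called. Tnfsf12, the gene of TWEAK, stood at 12.3 and 9.18 CPM in NE and at 12.6 and 10.5 CPM in vehicle, and its log2 fold change was -0.11 ± 0.18 (edgeR adjusted p = 0.795). In the annotation 48.3% of its exon bases, and 60.1% of those of Tnfsf13 (APRIL), are shared with the read-through gene Tnfsfm13, so reads of these genes could be split by the counting. Tnfsf9, the gene of the T cell costimulator 4-1BB ligand, had 6.92 and 6.17 CPM in NE and 5.65 and 7.92 CPM in vehicle, at a log2 fold change of -0.05 ± 0.22. The B cell factor gene Tnfsf13 had 1.54 and 2.13 CPM in NE and 2.22 and 2.08 CPM in vehicle (log2 fold change -0.22 ± 0.37). Tnfsf13b, the gene of the B cell survival factor BAFF, had 1.73 and 1.86 CPM in NE and 1.75 and 1.54 CPM in vehicle (0.13 ± 0.38). For none of these 4 genes did the groups separate, and their adjusted p-values lay between 0.795 and 0.931.

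Below the level of the test, 10 genes had at least 10 counts in all. They were Tnfsf10 (31), Cxcl5 (29), Tnfsf18 (24), Il34 (18), Ccl8 (18), Cxcl17 (14), Tnfsf15 (13), Cxcl16 (11), Csf2 (11) and Cxcl13 (10). Of the alarmin and type 2 cytokine genes of the airway, Tslp had 5 counts and Il25, Il4 and Il13 had 0, and Il5 had 1. The classical inflammatory genes Il1b, Cxcl2, Ccl20, Ccl3 and Ccl4 had 0 or 1 count, as did Il10, Il2 and Il17a. The 4 receptor genes matched by the pattern were also at 0.

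Differences between libraries of 1 group often exceeded those between groups for these genes. In 14 of the 21 tested members the vehicle libraries differed from each other by more than the groups did, against 49.5% of all tested genes. The same count, 14, was found for the NE libraries, against 46.4% of all tested genes. Single libraries were compared within groups and pairs of libraries between them, so the differences within groups carry more noise. The shares for vehicle and NE were 64.7% and 55.9% of the tested NF-kB and inflammatory genes described below. Of the tested receptor and adaptor genes they were 54.2% and 43.8%. The log2 difference between the vehicle libraries exceeded 0.5 for 6 members (Cxcl12, Il33, Ccl9, Il15, Il6 and Cx3cl1), and for 7.34% of all tested genes. Il6 and Cx3cl1 among them had 84 and 52 counts in all, and the shares are a description. Genes were not matched for level, and the median SE was 0.22 for the members against 0.10 for all tested genes. The 95% interval of the NE effect lay within 1 log2 unit on either side of 0 for 16 of the 21 members (76.2%), against 89.9% of all tested genes.

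**Figure D4:**
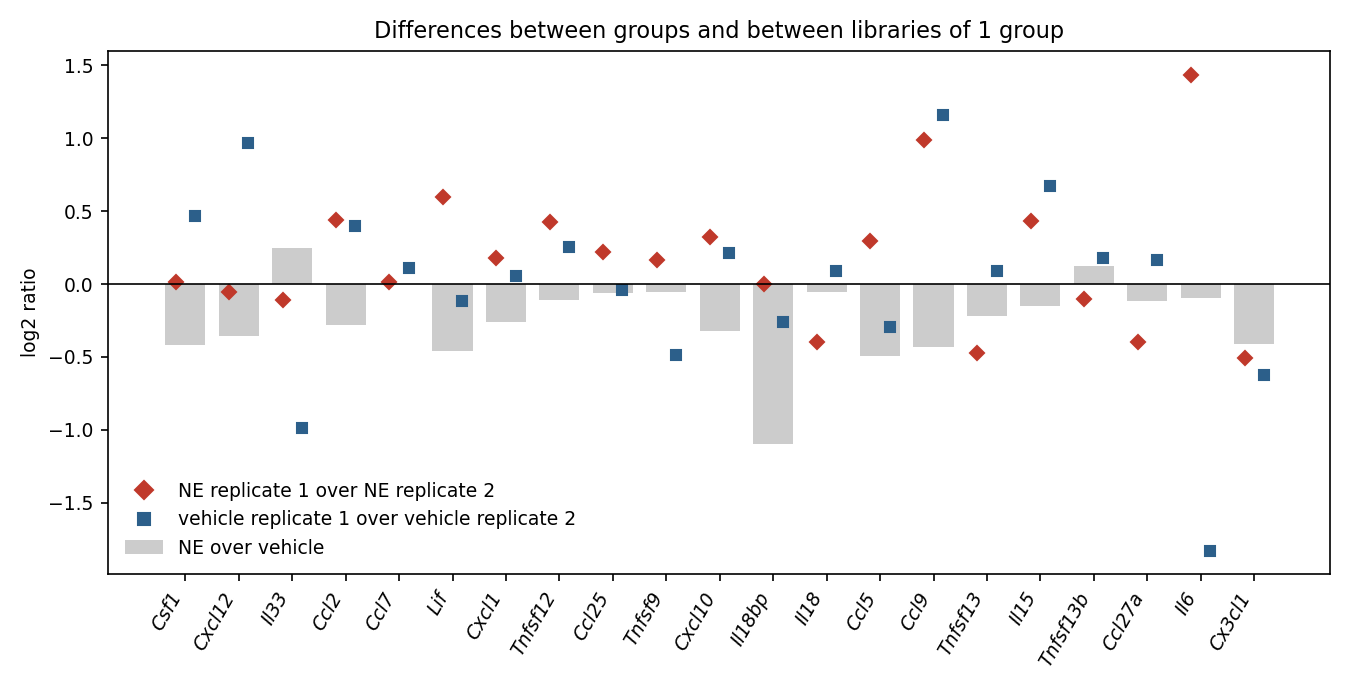
Log2 ratios for the 21 tested ligand genes, ordered by level. Grey bars are NE over vehicle, red diamonds NE replicate 1 over NE replicate 2, and blue squares vehicle replicate 1 over vehicle replicate 2. For Cxcl12, Il33, Ccl9 and Il6 a square or diamond lies beyond the bar. For Il18bp the diamond lies near 0 and the square at -0.26, whereas the bar reaches -1.10.

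Promoter sequence was looked at because NF-kB, interferon and cAMP signals are known to act on these genes through short motifs. RefSeq promoters (GRCm38.p6) were at hand for 68 members, 15 of them tested, and the 250 bases before each start were searched on both strands. The NF-kB letters, GGG, then any pair of bases, then TTTCC, were found for 11 of the 68, against 1.65% of 27025 genes. They were found for 4 of the 15 tested members with a promoter (26.7%), Csf1, Cxcl1, Il6 and Ccl9. Ccl2, Ccl7, Ccl5, Tnfsf12, Tnfsf9 and Il15 had no promoter at hand and were not searched. The cAMP response element TGACGTCA was found for 0 of the 68 members (1.77% of all genes). Its half-site TGACG, which lies within it, was found for 10 (19.8% of all genes), and the interferon element, GAAA, then any pair of bases, then GAAA, for 6 (3.46% of all genes). Shown are the promoter of Il18bp, as the 1 member called, and those of Csf1, Cxcl1 and Il6 as members with NF-kB letters. In the order below they lie at chr7:102018233-102018482 (minus strand), chr3:107760470-107760719 (minus strand), chr5:90890995-90891244 (plus strand) and chr5:30012864-30013113 (plus strand). Each runs 5′ to 3′ to the base before the start, and capitals mark the motif letters.
Il18bp: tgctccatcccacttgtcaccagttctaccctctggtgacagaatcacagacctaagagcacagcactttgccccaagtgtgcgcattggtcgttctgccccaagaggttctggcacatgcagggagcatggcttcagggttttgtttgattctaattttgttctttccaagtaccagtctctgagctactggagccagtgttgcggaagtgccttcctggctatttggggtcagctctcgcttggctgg
Csf1: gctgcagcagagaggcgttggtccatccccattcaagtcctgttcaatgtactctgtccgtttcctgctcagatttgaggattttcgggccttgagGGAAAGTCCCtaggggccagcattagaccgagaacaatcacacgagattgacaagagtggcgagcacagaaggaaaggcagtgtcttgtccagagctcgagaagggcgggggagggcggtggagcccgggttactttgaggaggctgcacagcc
Cxcl1: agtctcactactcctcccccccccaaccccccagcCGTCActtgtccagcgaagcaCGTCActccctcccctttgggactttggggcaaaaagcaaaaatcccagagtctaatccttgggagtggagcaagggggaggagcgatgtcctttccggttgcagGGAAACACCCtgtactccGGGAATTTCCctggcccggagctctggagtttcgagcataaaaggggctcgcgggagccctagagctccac
Il6: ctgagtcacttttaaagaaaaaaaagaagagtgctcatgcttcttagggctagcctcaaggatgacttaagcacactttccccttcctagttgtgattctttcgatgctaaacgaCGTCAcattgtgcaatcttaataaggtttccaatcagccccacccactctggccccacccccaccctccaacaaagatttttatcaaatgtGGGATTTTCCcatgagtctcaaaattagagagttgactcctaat
None of these letter sets occurs in the Il18bp window. The Csf1 window holds NF-kB letters that begin 154 bases before the start. In that of Cxcl1 they begin at 89 and 71 bases before the start, with half-sites farther up, and in that of Il6 at 44 bases, with a half-site at 135. The 4 tested genes with NF-kB letters had log2 fold changes of -0.42 (Csf1), -0.26 (Cxcl1), -0.09 (Il6) and -0.43 (Ccl9), and 0 of them were called by edgeR. A match of letters is a description and does not show that a factor bound there.

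Receptor and adaptor genes for these ligands were also measured, to see which of the signals the cells could receive. Of 101 genes 48 could be tested and edgeR called 0 of them, where it called 1.57% of all tested genes. Limma voom and DESeq2 also called 0, but DESeq2 gave an adjusted p to only 7655 genes. How many of the 48 were among these was not counted. At an unadjusted p under 0.05 were 4 of the 48, against 17.3% of all tested genes. The median log2 fold change was -0.05, with 20 above 0 and 28 below. The 6 with the smallest p-values were Tyk2, Il1rl1, Eda2r, Il17rd, Tnfrsf12a and Osmr, and the log2 fold changes were -0.22 ± 0.10 for Eda2r, -0.88 ± 0.41 for Il17rd and -0.22 ± 0.10 for Osmr. Tyk2, a kinase of cytokine receptors, averaged 20.0 ± 0.80 CPM in NE and 25.7 ± 0.64 CPM in vehicle (SD, n = 2 each), at a log2 fold change of -0.36 ± 0.11 (adjusted p = 0.102). Tnfrsf12a, the receptor of TWEAK, averaged 147.1 ± 9.02 CPM in NE and 132.5 ± 4.39 CPM in vehicle (log2 fold change 0.15 ± 0.07, adjusted p = 0.296).

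Receptors of the abundant ligands were then read out by ligand, a choice made after their values were seen. Il1rl1, the Il33 receptor ST2, stood at 8.39 and 5.90 CPM in NE, against 1.88 and 5.30 CPM in vehicle, at a log2 fold change of 0.98 ± 0.34 (edgeR adjusted p = 0.145). Csf1r, the receptor of M-CSF, stood at 9.23 and 11.6 CPM in NE, against 1.81 and 10.2 CPM in vehicle, at 0.80 ± 0.40 (adjusted p = 0.327). Vehicle replicate 1, which was low in Il33, was thus also the low library for both receptors. Without vehicle replicate 2, only that low vehicle library is left. The log2 fold changes were then 1.91 for Il1rl1 and 2.52 for Csf1r.

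For other ligands the receptor chains were uneven. Cxcr4, the signalling receptor of Cxcl12, had 34 counts in all, whereas the scavenging receptor gene Ackr3 averaged 28.7 ± 1.56 CPM in NE and 31.6 ± 7.72 CPM in vehicle (SD, n = 2 each). The gp130 gene Il6st averaged 166.1 ± 8.93 CPM in NE and 185.7 ± 20.3 CPM in vehicle, and Lifr 45.7 ± 0.56 CPM in NE and 45.1 ± 3.00 CPM in vehicle. Il18rap, the accessory chain of the interleukin-18 receptor, averaged 22.4 ± 0.98 CPM in NE and 23.2 ± 1.97 CPM in vehicle, whereas its binding chain Il18r1 had 1 count in all. The chemokine receptor gene Ccr2 had 0 counts and Cxcr2 had 4. The edgeR fit called none of Ackr3, Il6st, Lifr and Il18rap, with adjusted p-values between 0.311 and 0.941.

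A list of 44 NF-kB and inflammatory response genes was also read out, with genes of the NF-kB pathway itself, such as Rela and Nfkbib, among them. Of these 44, 34 could be tested, 1 was called lower, 0 were called higher and 33 did not pass, where 1.57% of all tested genes were called. The list's median log2 fold change was -0.09, with 24 below 0 and 10 above, and 5 of the 34 had an unadjusted p under 0.05, against 17.3% of all tested genes. The gene called lower was Nfkbiz, which encodes the nuclear regulator IkB-zeta. It stood at 40.0 and 30.7 CPM in NE, against 52.8 and 50.1 CPM in vehicle, at a log2 fold change of -0.54 ± 0.11 (edgeR adjusted p = 0.0312). DESeq2 and limma voom called it too, and it was not called without NE replicate 2 or with the length trend removed. The protease gene Mmp3 stood at 0.44 ± 0.12 (adjusted p = 0.0691) on the log2 scale. The adhesion gene Icam1 averaged 2.61 ± 1.38 CPM in NE and 5.17 ± 0.765 CPM in vehicle (SD, n = 2 each, edgeR adjusted p = 0.132). Zfp36, whose product destabilises cytokine mRNAs, stood at -0.34 ± 0.12 (adjusted p = 0.160), Lcn2 at -1.39 ± 0.63 (adjusted p = 0.265) and the NF-kB subunit gene Rela at -0.14 ± 0.08 (adjusted p = 0.354). Nfkbia, the inhibitor gene that NF-kB induces first, averaged 23.0 ± 0.79 CPM in NE and 23.0 ± 4.63 CPM in vehicle (SD, n = 2 each), and was chosen after its value was seen. Tnf had 0 counts.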

How the data were processed

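The authors deposited 1 table of raw read counts per gene, with 1 column per library, per the file headers. The genome build named in the submitters' processing notes is GRCm39 (mm39). Not given in the sources used here were the aligner, the counter, the annotation and the strand setting. Columns were matched to samples by the library names in the labels. Identifiers without a symbol (30) held 0.000742% of the counts.

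Counts were tested with edgeR 4.0.16 (R 4.3.3): filterByExpr (minimum count 10, total 15), TMM scaling, quasi-likelihood test of NE against vehicle, Benjamini-Hochberg adjustment over 11419 genes, calls at an adjusted p under 0.05. SE is the absolute log2 fold change over the square root of F. CPM uses TMM-scaled totals of the genes kept. Exon lengths came from GENCODE M21 (GRCm38). Alternatives used DESeq2 1.42.0, limma 3.58.1, other scalings and filters, a replicate block, removal of the length trend (99.8% of tested genes had a length) and each library left out. The procedure was checked on simulated data. The 95% intervals of fold changes include the spread between libraries, whereas limits for a count of 0 and errors named as counting errors cover counting error only.

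The members and lists were chosen with earlier results of these data known. Named were all members with at least 1 CPM, a call or 10 counts, and up to 6 genes of each of the other lists, called genes before uncalled ones, which were taken by rising p. Genes outside this rule, such as the receptors read out by ligand and members given with few counts, were chosen after their values were seen.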

Additional observations from a re-analysis of the deposited data

How the results depend on the processing

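Il18bp kept a negative log2 fold change, between -1.22 and -0.96, in every alternative run, and its call was lost without either NE library and with the length trend removed. The cause was not tested. DESeq2 gave it no adjusted p (unadjusted p = 0.000587). Members called lower numbered 2 without a filter and 2 with a replicate block (Il18bp and Csf1), and 0 with DESeq2 and 0 with the length trend removed. Leaving out 1 library gave between 0 and 5 lower and between 0 and 1 higher. The largest numbers came without vehicle replicate 2 (Ccl2, Csf1, Cxcl12, Il18bp and Lif lower, Il33 higher). The upper ends of the ranges over all genes, given below, came from the same run, and the lower ends without NE replicate 2. Calls thus rose over the whole table in that run, and whether members rose beyond this was not tested. These ranges span all runs with 1 library left out. Receptor genes then ranged from 0 to 2 higher and 0 to 3 lower, and NF-kB and inflammatory genes from 0 to 2 higher and 0 to 5 lower. Of the NF-kB and inflammatory genes 1 was higher (Mmp3) without a filter and 1 with the replicate block, and 0 were lower with the length trend removed. Over all genes 39 were higher and 140 lower; total counts as scaling gave 15 and 123, no filter 84 and 225, DESeq2 24 and 51, the replicate block 84 and 236, and removal of the length trend 10 and 31. Leaving out 1 library gave between 2 and 312 higher and between 2 and 428 lower. Same-numbered libraries did not deviate together over all genes (correlation -0.06). With 2 libraries per group this cannot show whether the numbers pair libraries, and the labels name no pairing. Apart from Ccl7, which stayed between -0.12 and 0.06, signs of uncalled members turned only when a library was left out, with log2 fold changes between -0.76 and 0.21 for Cxcl12, -0.16 and 0.83 for Il33, -0.33 and 0.091 for Tnfsf12, -0.17 and 0.045 for Ccl25, -0.28 and 0.21 for Tnfsf9, -0.27 and 0.13 for Il18, -0.98 and 0.26 for Ccl9, -0.45 and 0.22 for Il15, -0.33 and 0.064 for Ccl27a, and -0.94 and 1.09 for Il6. A lone library of a group is there assumed to vary like the other group. Fold changes fell with transcript length, from a median log2 fold change of 0.10 in the shortest of 10 length groups to -0.07 in the longest. Members with few counts, such as Il6 and Cx3cl1, have 95% intervals that reach past 1 log2 unit.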
